A study of Mus musculus with 4 samples.

Results

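The DEAD-box and DEAH-box RNA helicase genes are described here by the MILI-bound small RNAs that match their transcripts in the young mouse testis. Members were the GENCODE M21 protein-coding genes on autosomes whose symbol is Ddx or Dhx followed by a number. The rule found 50 genes, 34 Ddx and 16 Dhx, of 20807 autosomal protein-coding genes. A listed sequence counted for a member when the whole sequence matched a transcript of that gene exactly, in sense or antisense, and matched no other gene. Of 4906138 listed sequences, 13048 (0.266%) met this condition, 12808 in sense and 240 in antisense.

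MILI, a PIWI protein that binds piRNAs, was immunoprecipitated from testes of C57BL/6 mice at 14 dpp, and its bound RNA was cut from a gel at 28 to 30 nt. The groups were Tdrd9+/- (2 libraries) and Tdrd9-/- (2 libraries), and all 4 libraries share the strain, tissue and age. The labels name neither the kind of Tdrd9 allele nor the number of animals behind each library, so the spread between animals cannot be read. The 4 libraries share 1 list of distinct sequences with no library column and no read count, so the genotypes were not compared, no test was run and the depth of each library is unknown. A sequence read once and one read many times count alike, which compresses the range between abundant and rare RNAs. Intervals are 95% exact Clopper-Pearson intervals, or exact Poisson intervals for densities, over distinct sequences or 5′ ends, and cover counting error only.

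DEAD-box and DEAH-box proteins use ATP to open RNA duplexes or to strip proteins from RNA, and they take their names from the letters of a conserved motif of the ATP-binding site. Members act at nearly every step of RNA life, from transcription and splicing through nuclear export, translation and decay to ribosome assembly. In germ cells, piRNAs are cut from long single-stranded precursors, which include transposon RNAs, long noncoding RNAs and the messenger RNAs of many protein-coding genes. Primary piRNAs usually begin with U, and piRNAs made by reciprocal slicing of opposite strands overlap by 10 nt at their 5′ ends.

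The 5′ ends that carried the most sequences in the 5 fullest members are printed as examples and are not typical of all ends. Each is the longest listed sequence of at most 30 nt at that end, written 5′ to 3′ with T for U, and the capital marks its first base. Coordinates are mm9, from the deposited list.
Ddx19b, chr8:113528818-113528846 (-): Tgacaagatttgcaaggaaaggactcatc
Dhx33, chr11:70798264-70798293 (-): Tgactccacagatcactacgaagaaattaa
Dhx37, chr5:125895144-125895173 (-): Tagcatcttggacagcaggtgtactgcaga
Ddx6, chr9:44446671-44446700 (+): Tgactctgtaacaactgtagcaggagctgc
Ddx51, chr5:111088355-111088383 (+): Tgagagagtcaaagtagccggtgtcattc
All 5 begin with T and all lie in a 3′ UTR. Over all members, 65.2% of ends held a single sequence, and 49.5% of those began with U. Of the ends placed on a transcript, 58.9% lay in coding sequence. The Ddx19b end held 8 sequences of 21 to 29 nt and shared that count with 1 other end of the gene. The ends of Dhx33 (8 sequences), Dhx37 (6), Ddx6 (9) and Ddx51 (7) likewise held a ladder of sequences with the same start and different 3′ ends. The printed end was 1 of 3 with that count in Dhx37 and 1 of 2 in Ddx51. Tied ends that are not printed are not described here.

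Every member had at least 1 sense sequence (50 of 50), beside 73.8% of autosomal protein-coding genes. At least 10 sense sequences were found for 49 members (98.0%, interval 89.4 to 99.9), beside 57.5% of the same genes. At least 100 were found for 36 members (72.0%, interval 57.5 to 83.8), beside 25.8% of those genes. Members have long transcripts, with a median longest transcript of 3940 nt beside 2928 nt for autosomal protein-coding genes. Among the 13130 genes whose transcripts fall in the members' length range, 30.8% reached 100 sequences, so the members' share was also above that of genes of similar length.

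Levels between genes were set side by side as a density, the number of distinct sense 5′ ends divided by the length of the longest transcript in kb. The median member had 31.9 ends per kb (counting interval 26.4 to 38.2). This interval covers the counting error of a gene at the median and not the spread between members. The middle of the distribution ran from 20.1 at the lower quartile to 50.6 at the upper quartile. The median autosomal protein-coding gene had 6.26 ends per kb, the median of those with any sequence 14.0, and the median in the members' length range 9.33. Of the 50 members, 46 lay above the autosomal median and 34 above the autosomal upper quartile of 23.0. Density did not follow length among the members (Pearson r 0.14, Spearman rho 0.02, n = 50 genes of the same libraries, a description). The median was 34.3 ends per kb for Ddx genes and 23.8 for Dhx genes. The 10 fullest members held 7288 of the 12808 sense sequences (56.9%), and Ddx19b alone held 16.0%.

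**Figure D1:**
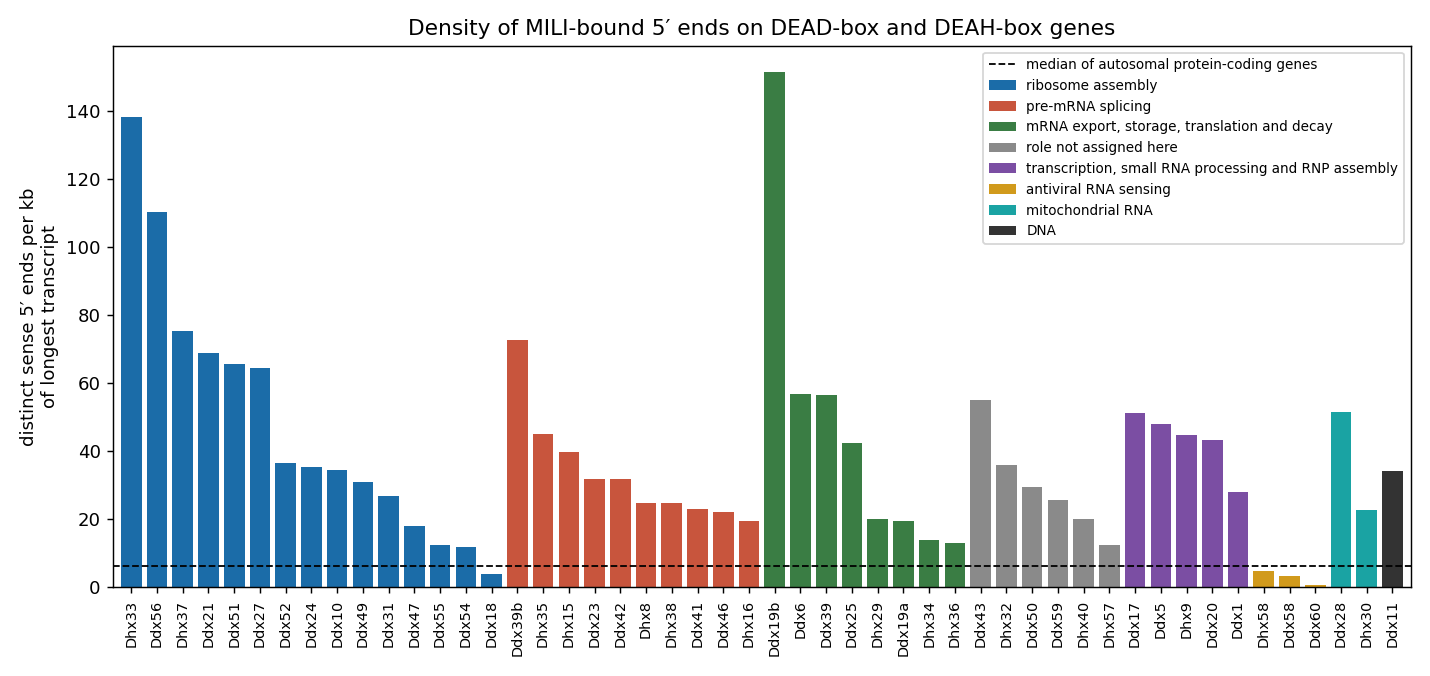
Density of MILI-bound sequences on each member, as distinct sense 5′ ends per kb of the gene's longest transcript, grouped by the role of the protein and sorted within each group; each bar is 1 gene and the dashed line is the median autosomal protein-coding gene (6.26). Bars run from 0.612 for Ddx60 to 151.7 for Ddx19b, and the antiviral sensors are low together.

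Among the 15 helicases of ribosome assembly, the median density was 35.3 ends per kb and 11 members reached 100 sense sequences. Dhx33, a nucleolar helicase needed for ribosomal RNA synthesis, led the group with 1358 sequences at 718 ends (138.5 per kb), listed over chr11:70797676-70817939 on the minus strand. Ddx56, which acts in large-subunit assembly, had the next density, 110.4 per kb from 422 sequences on a transcript of only 1956 nt (chr11:6158923-6167703, minus strand). Dhx37, which releases the U3 snoRNP from the small-subunit precursor, had 604 sequences and 75.4 ends per kb. Ddx21, which couples ribosomal RNA transcription to its processing, had 526 sequences (69.0 per kb), and Ddx51, a factor of large-subunit maturation, had 559 (65.8 per kb). The group also held 4 members under 100 sequences. Ddx18 had 15 sequences at 9 ends (3.99 per kb) and Ddx54 had 66 (11.8 per kb), although both also act in ribosome assembly. A further 29 sense sequences of Ddx54 were left out because they are also antisense to Gm43579. Between the highest and lowest of the group lay Ddx27 (269 sequences, 64.5 per kb), Ddx52 (167, 36.6 per kb), Ddx24 (229, 35.3 per kb) and Ddx10 (137, 34.5 per kb). A shared role thus did not go with a shared level.

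The 10 splicing helicases had a median of 28.4 ends per kb and a range of 19.7 to 72.7. Ddx39b, the helicase that loads U2 snRNP and then couples splicing to export, was highest, with 363 sequences at 207 ends over chr17:35379429-35390487 (plus strand). Dhx16, which remodels the spliceosome before the first step of splicing, was lowest, with 86 sequences (19.7 per kb). Between them were Dhx35 (218 sequences, 45.0 per kb), Dhx15 (165, 39.9 per kb), which takes the spent spliceosome apart, and Ddx23 (132, 32.0 per kb), a helicase of the U5 snRNP. Even the lowest member lay above the median of all autosomal protein-coding genes.

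The 8 helicases of mRNA export, storage, translation and decay had a median of 31.2 ends per kb and ran from 13.2 to 151.7. Ddx19b, which releases messenger RNPs at the cytoplasmic face of the nuclear pore, had 2053 sequences at 1003 ends, or 151.7 per kb, the highest density of any member (chr8:113527149-113551638, minus strand). Ddx6, a core protein of P-bodies that represses and stores messengers, had 566 sequences (57.0 per kb). Ddx25, the testis helicase GRTH that is needed for spermatids to mature, had 472 sequences, but its transcript of 6934 nt placed it at 42.4 per kb. Ddx39, a paralogue of Ddx39b, had 333 (56.6 per kb). Lower were Dhx29, which helps ribosomes scan structured leaders (123 sequences, 20.1 per kb), and Dhx34, a factor of nonsense-mediated decay (80 sequences, 13.9 per kb). Dhx36, which unfolds G-quadruplexes, was the lowest of the group with 94 sequences (13.2 per kb). The group had no member between 20.1 and 42.4 per kb, and its median falls in that gap: it was 20.1 without Ddx19b, and leaving out Ddx6, Ddx39 or Ddx25 instead gives the same value.

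Ddx19b and Ddx19a are neighbouring, closely related genes on the minus strand of chromosome 8 and differed widely. Ddx19a (chr8:113498907-113521647) had 58 sense sequences at 50 ends, 19.6 per kb, beside 151.7 for Ddx19b. Only 11 sequences matched both and were left out, far fewer than the gap between the genes. All 11 lay in coding sequence, while most of the Ddx19b ends lay in its 3′ UTR.

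The 5 helicases of transcription, small RNA processing and RNP assembly had the highest group median, 44.8 ends per kb, and all 5 reached 100 sequences. Ddx17, a cofactor of Drosha in microRNA processing, was highest with 365 sequences (51.4 per kb), and Ddx1, a member of the tRNA ligase complex, lowest with 205 (28.1 per kb). Dhx9, a nuclear helicase that unwinds long duplexes, had 288 (44.8 per kb), and Ddx20, a partner of the SMN protein in snRNP assembly, had 172 (43.4 per kb). The paralogue of Ddx17, Ddx5, had 277 sequences (48.1 per kb), and a further 44 were left out, 40 of them because they also match the pseudogene Gm12183. Of the mitochondrial helicases, Ddx28 had 51.7 ends per kb and Dhx30 22.7. Ddx11, which unwinds DNA and serves sister chromatid cohesion, had 34.2. Among the 6 members with no role assigned here, Ddx43, a gene known for expression in testis and tumours, was highest (188 sequences, 55.3 per kb) and Dhx57 lowest (76 sequences, 12.6 per kb).

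The 3 members grouped here as antiviral sensors were among the 4 lowest in density, with Ddx18 (3.99 per kb) between them. Ddx60 had 4 sequences at 4 ends (0.612 per kb) on a transcript of 6535 nt, Ddx58, which encodes RIG-I, had 17 (3.36 per kb), and Dhx58, which encodes LGP2, had 15 (4.98 per kb). These 3 genes and Ddx18 were the 4 members below the autosomal median density. With so few sequences their shares and positions are not interpreted. The list gives no RNA level, so low transcript abundance and little entry into MILI cannot be told apart for any gene.

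Other RNA helicase genes were taken from a fixed list. Of 26 symbols 25 were found, with Skiv2l2 being an older name of Mtrex. At least 10 sense sequences were found for 24 of the 25 and at least 100 for 20, with a median of 20.3 ends per kb beside 31.9 for the members. Znfx1, a helicase of the Upf1-like family, had the highest density (1200 sequences, 92.7 per kb). Mov10l1, the helicase that feeds precursors to piRNA biogenesis, had 399 sequences (65.3 per kb). Tdrd9, the gene mutated in the Tdrd9-/- libraries and itself a DExH helicase, had 137 (19.96 per kb), which cannot be assigned to a genotype in the pooled list. Ifih1, the antiviral sensor MDA5, had 5 sequences (0.914 per kb), as low as the antiviral members.

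Cell type markers were counted in the same way. The list holds only RNA bound by MILI, so these counts cannot check which cells the testes held. All 7 germ cell markers reached 100 sense sequences, with a median of 57.3 ends per kb. Of 6 Sertoli cell markers, 1 (Sox9) had 10 or more sequences, and the median was 2.19 ends per kb, with Gata1 and Rhox5 at 0 in sense. Of 5 Leydig cell markers only Star had 10 or more, with 247 sequences and 40.8 ends per kb, above the median member. Of 5 spermatid markers only Tnp1 had 10 or more, with 19. The median germ cell marker thus lay above the median member, and the medians of the other lists lay below it.

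Positions within the transcript were read on the transcript with the longest coding sequence. Over all members, 177 ends lay in 5′ UTRs (18.2 per kb), 4075 in coding sequence (33.4 per kb) and 2664 in 3′ UTRs (49.9 per kb). The 3′ UTR density was 1.49 times the coding density (interval 1.42 to 1.57), beside 1.31 times over autosomal protein-coding genes. A few genes carried much of this excess. Of the 39 members with at least 50 ends and both regions of at least 100 nt, 20 were denser in the 3′ UTR (51.3%, interval 34.8 to 67.6), beside 42.7% of 6167 autosomal genes that met the same limits. The median ratio over these members was 1.02, beside 0.850 over those genes. Without Ddx19b and Dhx33, an alternative chosen after seeing the data, the pooled ratio was 1.21, below the 1.31 of autosomal protein-coding genes. The order of the members and those genes thus turns with these 2 genes. No gene was left out of the 1.31, so the members and those genes were not trimmed alike.

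In Ddx19b the 3′ UTR carried nearly everything. On its longest coding transcript, Ddx19b-201 (6612 nt), 913 of 1003 ends (91.0%) lay in the 3′ UTR of 5062 nt, at 180.4 per kb beside 61.8 per kb in coding sequence. The shorter transcript Ddx19b-202 has the longest coding sequence but lacks 740 of these ends, and with longest coding transcripts throughout the pooled ratio was 1.70. The fullest 200 nt of Ddx19b-201, positions 4752 to 4951, held 84 ends (8.37%), so no single stretch of that length held most of the ends. The end of this gene printed above lies in that stretch, at position 4854.

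Dhx33 had the same form, with 559 of 702 ends (79.6%) in a 3′ UTR of 3028 nt, at 184.6 per kb beside 67.7 per kb in coding sequence. Its listed sequences together covered 77.1% of the transcript, beside a median of 36.95% and 1.79% for Ddx60. This was the highest share of any member on the transcripts with the longest coding sequence. For Ddx19b that is Ddx19b-202 (54.2% covered), and the coverage of Ddx19b-201 was not computed. Dhx37 had 138.2 per kb in the 3′ UTR beside 52.4 in coding sequence, and its fullest 200 nt, positions 3635 to 3834, begin soon after the stop codon and held 69 of 350 ends (19.7%). Ddx51 (82.7 beside 38.0 per kb), Ddx6 (62.6 beside 39.9) and Ddx21 (86.2 beside 55.6) were also denser in the 3′ UTR. Ddx43 had the highest ratio, 3.23, although its 3′ UTR is only 163 nt long and held 26 ends.

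**Figure D2:**
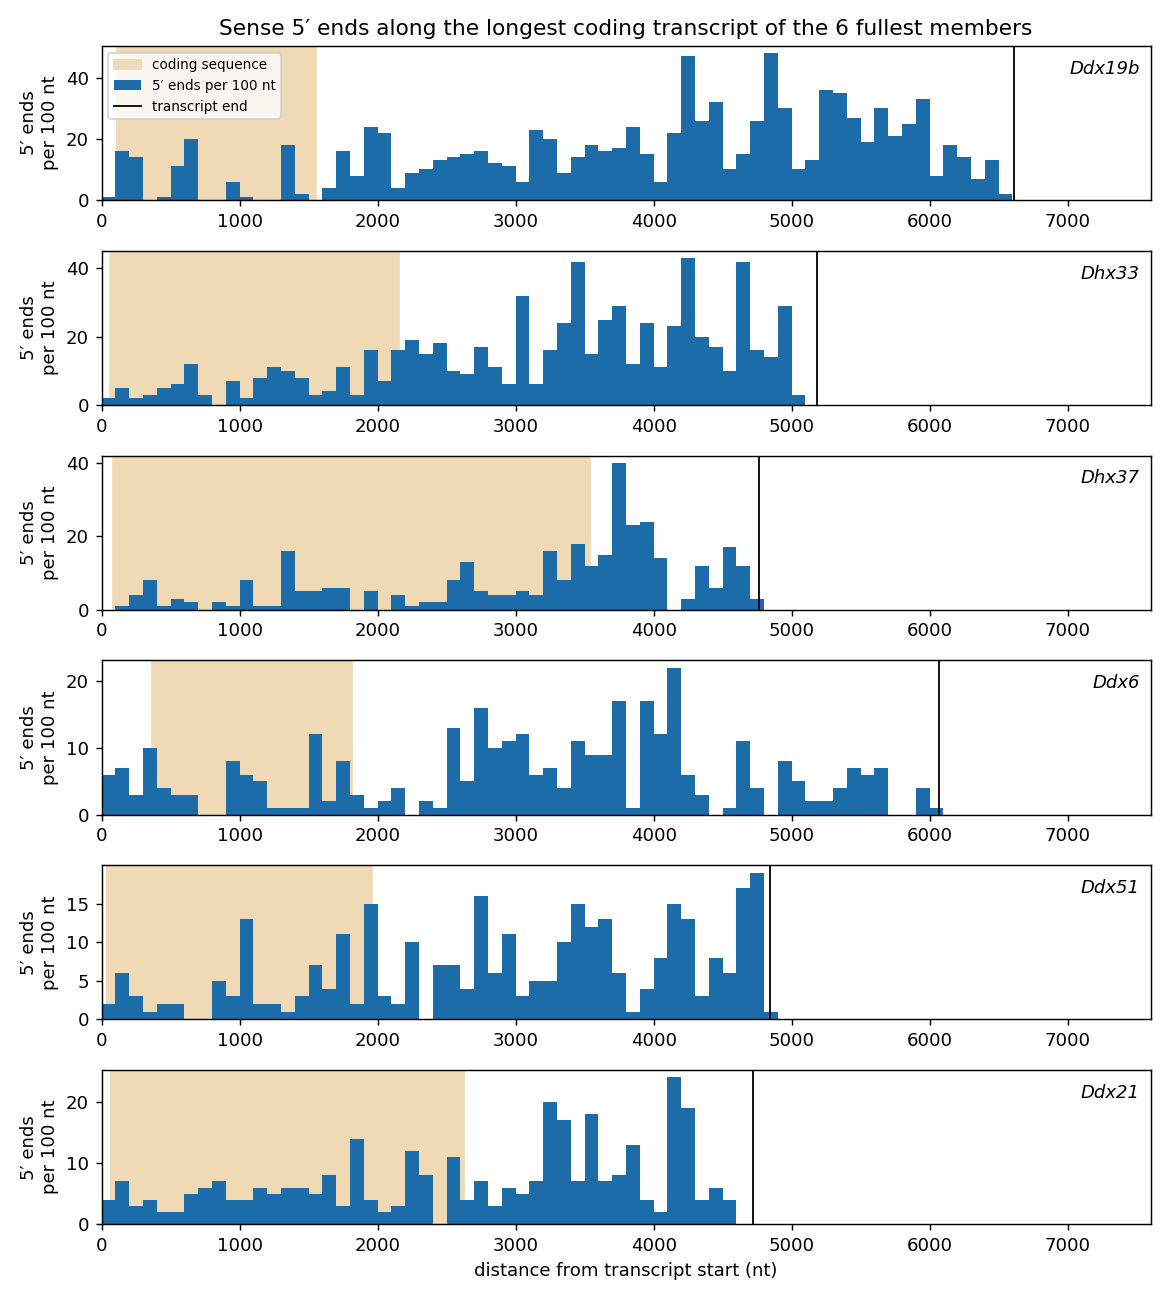
Distinct sense 5′ ends per 100 nt along the longest coding transcript of the 6 members with the most sense sequences; the x axis is the distance from the transcript start in nt, the shaded span is the coding sequence and the vertical line the transcript end. In Ddx19b and Dhx33 the bars fill the 3′ UTR, where 913 of 1003 and 559 of 702 ends lie.

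Other members went the other way. Ddx25 had 34.4 ends per kb in its 3′ UTR of 5351 nt beside 73.5 per kb in coding sequence, a ratio of 0.468. Ddx39b was dense in coding sequence (99.5 per kb) and slightly less so in the 3′ UTR (83.8 per kb). Of its 207 ends, 50 lay off the transcript used and were not placed. On the transcripts used, Ddx1 (ratio 0.189), Ddx46 (0.197), Dhx36 (0.143) and Ddx5 (0.328) had most of their ends in coding sequence although their 3′ UTRs exceed 1 kb. A further 52 of the 173 ends of Ddx5 lay off its transcript and were not placed. Ddx49 had 64 coding ends and none in its 3′ UTR of 642 nt, but 27 sense sequences there were left out because they are also antisense to the overlapping gene Homer3. The 3′ UTR of Ddx39 likewise lost 61 sequences that are antisense to Adgre5, so its ratio of 0.490 leaves these out.

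In several members the fullest stretch lay around the stop codon. The fullest 200 nt of Ddx1, positions 2234 to 2433, held 36 of its 136 ends (26.5%) and span the end of a coding sequence of 2223 nt that follows 94 nt of 5′ UTR. In Ddx43 the fullest 200 nt, positions 1920 to 2119, held 34 ends (27.9%) and likewise span the stop codon, and in Dhx40, positions 2302 to 2501, 23 ends (29.9%) lay just before it. Ddx49 had its fullest stretch near the start, at positions 149 to 348, with 29 ends (43.3%). The 5′ UTRs added little in most genes, and 24 ends in Dhx32 (58.1 per kb), 22 in Ddx6 (60.6 per kb) and 20 in Dhx34 (25.1 per kb) were the highest numbers. The 5′ UTR of Ddx39b, 1370 nt on the transcript used, held 13 ends (9.49 per kb), without the 50 ends that lay off that transcript.

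**Figure D3:**
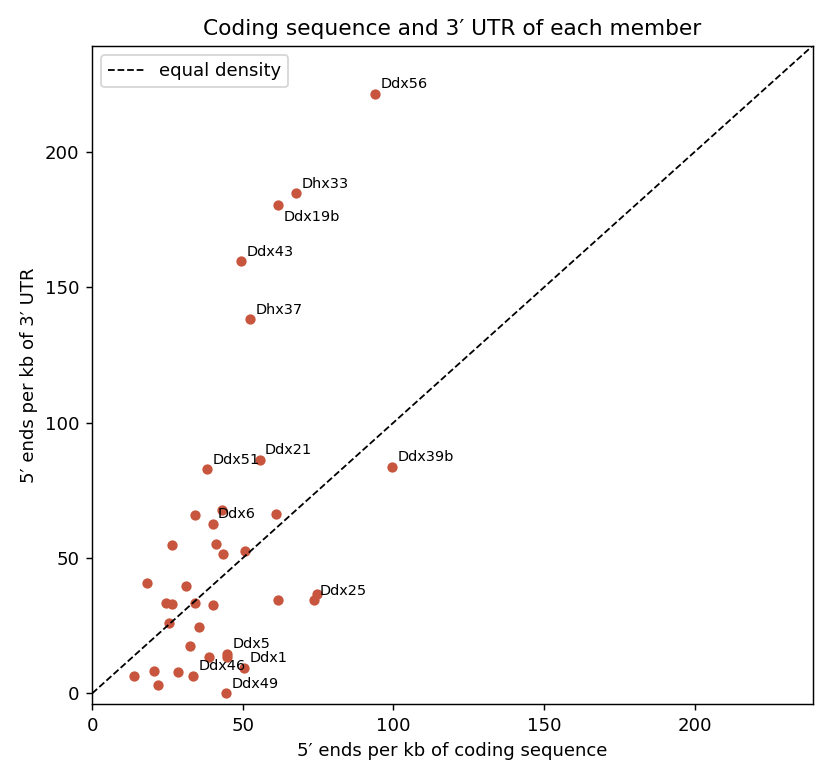
Density in the coding sequence (x axis) against density in the 3′ UTR (y axis), both in distinct sense 5′ ends per kb of the longest coding transcript; each point is a member with at least 50 ends on it and a 3′ UTR of at least 100 nt, and the dashed line marks equal densities. Ddx56, Dhx33, Ddx19b, Ddx43 and Dhx37 stand far above the line, and Ddx25, Ddx1, Ddx46, Ddx5 and Ddx49 below it.

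Sense sequences of members were piRNA-sized, with a mean length of 27.1 nt (SD 1.36, n = 12808 sequences), a mode of 27 nt and 75.2% between 26 and 28 nt. The whole list, from the same cut of the gel, had a mean of 27.1 nt, a mode of 27 nt and 77.0% between 26 and 28 nt. The range of the member sequences was 18 to 31 nt. A 5′ U was present in 64.2% (interval 63.4 to 65.0), beside 69.2% over autosomal protein-coding sense sequences and 75.4% over the whole list. An A at position 10 was present in 31.03% (interval 30.2 to 31.8), beside 30.6% over the protein-coding sense sequences. All 46 members with at least 50 sense sequences had an interval for 5′ U that lay above the share of U in the transcript. Their 5′ U share ran from 50.4% in Dhx30 to 78.8% in Ddx25 with a median of 63.6%, while the share of U in the transcript ran from 18.5% to 30.2% with a median of 23.7%. Across these 46 genes the 5′ U share did not follow the U content (Pearson r -0.06, Spearman rho -0.04, a description of genes that share all libraries).

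The 5′ U share was higher at ends that held more sequences. At the 5196 ends with a single sequence it was 49.5%, at the 2239 ends with 2 or 3 sequences 67.6%, and at the 537 ends with 4 or more 86.0% (interval 82.8 to 88.9). Autosomal protein-coding genes gave 56.2%, 73.8% and 88.3% for the same classes. By region, the 5′ U share was 68.8% in 5′ UTRs, 60.3% in coding sequence and 69.3% in 3′ UTRs of members, where U makes up 20.6%, 21.9% and 29.7% of the bases. Sequences with a 5′ U were thus the majority in every region, with the lowest share in coding sequence. Divided by the U content of the region, the share was lowest in 3′ UTRs (2.34), beside 2.75 in coding sequence and 3.33 in 5′ UTRs.

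**Figure D4:**
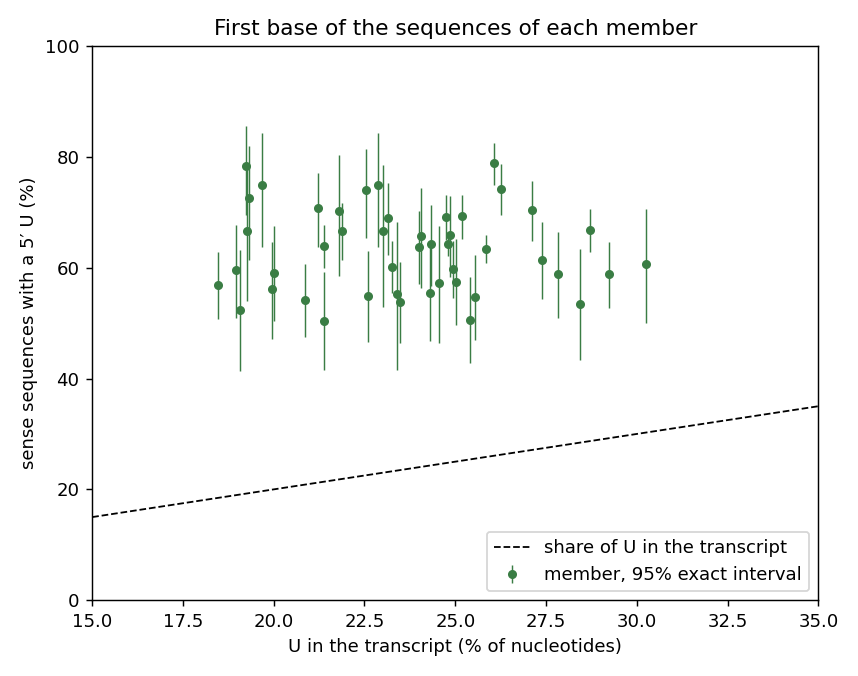
Share of sense sequences that begin with U (y axis, %) against the share of U in the transcript (x axis, %), for the 46 members with at least 50 sense sequences; points are genes, bars are 95% exact intervals and the dashed line is where the shares would be equal. All points and their bars lie above the line, between 50.4% and 78.8%.

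Within the genomic spans of members, ends were far denser on exons than between them. In the 42 members whose listed span was at least 1.5 times the summed exon length, matched exonic sequences had 30.6 ends per kb (7281 ends over 237.6 kb). The remaining length of those spans had 1.18 same-strand ends per kb that matched no transcript (1195 ends over 1009.5 kb), and the ratio of these densities was 25.9 (interval 24.3 to 27.5). Over all members 1545 same-strand sequences within the spans matched no transcript, and Ddx39b (246), Dhx32 (212) and Dhx57 (158) held 39.9% of them. Of the 246 within Ddx39b, 188 lay within 1 kb, chr17:35386832-35387831, and 78.5% of the 246 began with U. Whether these come from an intron kept in the RNA or from a transcript outside the annotation was not tested.

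Antisense sequences were few. They made up 1.84% of member sequences (interval 1.62 to 2.08), beside 4.79% over autosomal protein-coding genes. At least 1 antisense sequence was found for 32 members (64%, interval 49.2 to 77.1), beside 45.9% of autosomal protein-coding genes, and 10 or more for 7 members (14.0%, interval 5.82 to 26.7), beside 11.1%. The latter interval includes the value of all genes. Of the antisense sequences 83.75% began with U (interval 78.5 to 88.2), above the 64.2% of the sense sequences.

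Ddx55, a helicase of large-subunit assembly, held the most, 47 antisense beside 57 sense sequences. Of the 39 antisense sequences that could be placed on its transcript, 35 lay in the 3′ UTR, and the fullest gene on that strand within 20 kb was Eif2b1 with 91 sequences. Ddx19a had 25 antisense beside 58 sense sequences, with 18 in its 3′ UTR, next to St3gal2, which had 464 sequences on that strand. Ddx31, a ribosome assembly factor, had 22, all within 378 nt of its 5′ UTR, and the listed sequences of Gtf3c4 on that strand, 2718 in all, end next to them, at position 28695845 of chromosome 2. Ddx39 and Ddx54 had 14 each. Whether these sequences belong to the neighbouring transcripts was not tested. The remaining 18 members had no antisense sequence, Ddx19b, with 2053 sense sequences, among them.

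**Figure D5:**
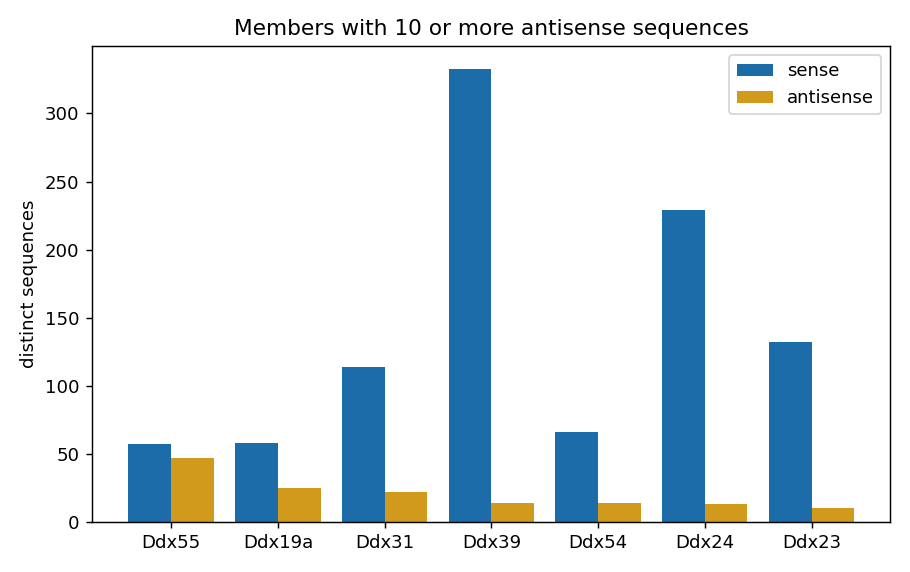
Number of distinct sense and antisense sequences (y axis) for the 7 members with 10 or more antisense sequences, in order of antisense number; bars are counts in the pooled list. Ddx55 is nearly even, with 57 sense and 47 antisense, while Ddx39 has 333 sense and 14 antisense.

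Opposite-strand ends that overlap by 10 nt, the sign of reciprocal slicing, were not in clear excess. There were 11 such pairs, beside a mean of 8.53 pairs (range 3 to 15) at each other overlap from 1 to 20 nt, and 0.269% of the 8170 member ends had such a partner. With only 240 antisense sequences over all members, a small excess could not be seen. As examples, 6 pairs are printed with their overlapping first 10 bases in capitals. The first 4 hold the most sequences, 3 or 4 over both ends, while the pairs of Dhx40 and Ddx5 hold 1 sequence at each end, as do all pairs not printed.
Dhx33 sense, chr11:70798078-70798105 (-): TGAACTTCCAcaacagccctgcgtgctg
Dhx33 antisense, chr11:70798096-70798123 (+): TGGAAGTTCAtctgtctgttggaggcta
Ddx55 antisense, chr5:125018804-125018833 (-): TTCAGGTTCTcccagtctgaacagacagct
Ddx55 sense, chr5:125018824-125018850 (+): AGAACCTGAAggactgcacacacggga
Ddx19a sense, chr8:113499240-113499267 (-): TTATTCTTCAgattggcagaaaaaatgg
Ddx19a antisense, chr8:113499258-113499285 (+): TGAAGAATAAagacataaccaaggcatt
Dhx33 sense, chr11:70798879-70798905 (-): TCACAGCTGTgtctgttgagtctggtc
Dhx33 antisense, chr11:70798896-70798923 (+): ACAGCTGTGAaccaatgagatcctggca
Dhx40 sense, chr11:86583517-86583542 (-): TCAGAAGGAAgtggtcagcagctgtt
Dhx40 antisense, chr11:86583533-86583559 (+): TTCCTTCTGAtagtactgtcggaaata
Ddx5 sense, chr11:106650072-106650096 (-): GGTGTAGCGAgacgagagacggcgg
Ddx5 antisense, chr11:106650087-106650115 (+): TCGCTACACCtcagacaagctgcttcccc
The pairs of Dhx33, Ddx55, Ddx19a and Dhx40 lay in 3′ UTRs. No end in these pairs held more than 3 sequences, far from the 8 at the fullest end of Dhx33.

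The motif that names the family was itself among the matched RNA of some members. Its site was taken as the first DEAD or DEAH in the translated coding sequence that follows 2 residues out of A, C, F, I, L, M and V, or failing that the first such variant of the form DExD or DExH. This rule was not checked against a protein annotation, and Dhx8 and Dhx15 each had 2 matches of the wider form. It gave DEAD in 25 members, DEAH in 9 and a variant in the others. In 20 members, 82 sense sequences span all its codons, 17 of them in Ddx25. The members had 5838 sequences in coding sequence in all. Other coding stretches of the same length were not counted, so whether the motif was matched more often than these was not tested. The examples, chosen after their values were seen, give 1 sequence each for 3 DEAD-box genes, a DEAH-box gene and a gene with a variant, with the codons of the motif in capitals.
Ddx25, chr9:35358908-35358936 (-): tcctgGATGAAGCAGATgtgatgattgac
Ddx43, chr9:78262035-78262063 (+): taGATGAAGCAGACaagatgctggacatg
Ddx47, chr6:134965915-134965942 (+): tgGATGAAGCAGACcggatactgaacat
Dhx33, chr11:70813299-70813326 (-): ttttgGACGAGGCCCATgagcggactat
Ddx39b, chr17:35384033-35384060 (+): tgGACGAGTGTGACaagatgcttgaaca
Ddx43 and Ddx47 carry the same bases over the motif, and the flanking bases differ, so that each of these sequences matched 1 gene only. Over all members, 302 sequences were left out because another gene matched too. Of these, 143 also matched a protein-coding gene that is not a member, 84 a noncoding or unclassified gene and 64 a pseudogene. The other 11 were shared by 2 members, Ddx19a and Ddx19b.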

How the data were processed

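Small RNAs bound by MILI were sequenced from 4 libraries. Per the file headers, the authors deposited 1 pooled list that gives each distinct sequence with its chromosome, strand and first and last base. The values are positions and not read counts. The build is mm9, per the submitters' processing notes, and for aligner and read filters the sources used here give nothing. The planned comparison of genotypes could not be made from this list.

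Sequences were matched exactly over their whole length to the 141767 transcripts of GENCODE M21. Only its sequences, types, strands, chromosome names and exon and coding lengths were used. It is built on another assembly, and no coordinate was mixed. The comparison of exons with the rest of the spans does set its summed exon lengths beside mm9 spans. Densities divide distinct sense 5′ ends by the longest transcript. Matching was tested on simulated data. The tools were scipy 1.17.1, numba 0.67.0, pandas 2.3.3 and numpy 2.4.6 under Python 3.11.15.

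The members, role groups and lists were chosen with earlier results of these data known. Genes named by rule were the 10 with the most sense sequences, the 5 highest and 5 lowest densities, the 5 with the most antisense, and the highest and lowest of each role group of 5 or more. Other members were named after their values were seen. A gene that fits the naming rule is not reported here. Alternatives changed lengths, shared matches, transcripts, counting unit and members.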

Additional observations from a re-analysis of the deposited data

How the results depend on the processing

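Of 33 alternatives run, 23 stayed within the counting interval of the reported value, or within 1.5 times a count, and 10 did not. For a median density that interval is the counting error of a gene at the median, not the spread between members. The total of sense sequences stayed between 12713 and 13108, and members with 100 or more between 32 and 36. The median density was 22.7 ends per kb when divided by the distinct 18-mers of all transcripts, and the median of the export, storage, translation and decay group was 20.1 without Ddx19b (or without Ddx6, Ddx39 or Ddx25). The antisense share was 2.42% by 5′ ends and 1.49% without Ddx55. The share with a 5′ U was 57.1% by 5′ ends and 63.2% as a mean over members. The ratio of 3′ UTR to coding density was 1.70 on the longest coding transcript, 1.82 by sequences and 1.21 without Ddx19b and Dhx33. This last alternative was chosen after seeing the data. Its value lies below the 1.31 of autosomal protein-coding genes, from which no gene was left out, while the reported value lies above it. The exonic to unmatched ratio was 32.7 by sequences. Counting by sequence favours ends with many 3′ variants; the cause of the other shifts was not tested. No paired analysis was possible because the list has no column for a library, and leaving out each replicate could not be run for the same reason. Depth per library is unknown, so nothing can be said about sequences missing from the list.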
